A study of Oryza sativa with 9 samples.

Results

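The 7 genes described here encode enzymes of the Calvin cycle other than Rubisco, and they are 7 of the 34119 genes in a table of rice seedling transcripts. They were taken by locus number, from a list drawn up with earlier results of these data known: GAPA (LOC_Os04g38600), GAPB (LOC_Os03g03720), plastid aldolase (LOC_Os11g07020), plastid fructose bisphosphatase (cpFBPase, LOC_Os03g16050), transketolase (LOC_Os06g04270), sedoheptulose bisphosphatase (SBPase, LOC_Os04g16680) and phosphoribulokinase (PRK, LOC_Os02g47020). They lie on chromosomes 2, 3, 4, 6 and 11. Polyadenylated RNA was sequenced from 14-day-old seedlings of an SDG708 overexpression line, SDG708-YFP-1 (708OE), and of the wild type (NIP), with 3 libraries for each genotype. SDG708 is a SET-domain protein, here fused to YFP, a fluorescent tag, and the labels name 1 line, so an effect of SDG708 and one of that line cannot be told apart. Seedlings grew for 7 days on solid and 7 days in liquid medium, in short days of 10 h light at 30°C and 14 h dark at 28°C. All of them, of both genotypes, then stood for 3 h in 20% PEG8000, a polymer that draws water out of tissue. The comparison is therefore between genotypes under dehydration and says nothing of the response to PEG itself.

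The Calvin cycle fixes carbon dioxide in the chloroplast stroma in 3 stages. Rubisco adds carbon dioxide to ribulose bisphosphate, the product is reduced to triose phosphate with ATP and NADPH from the light reactions, and most of the triose phosphate is rebuilt into ribulose bisphosphate. GAPA and GAPB are the subunits of the NADP-dependent glyceraldehyde phosphate dehydrogenase of the reduction stage. Aldolase, cpFBPase, transketolase and SBPase rearrange carbon skeletons during regeneration, and PRK makes the ribulose bisphosphate that closes the cycle. In leaves several of these enzymes are switched on in the light through thioredoxin.

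FPKM values (reads scaled to gene length and library size) implied library sizes of 13.3 M to 24.9 M reads. Counted reads over all genes ran from 13.2 M to 26.1 M and exceeded the implied size in the NIP libraries. Repeats of 708OE lay closer to each other than those of NIP: squared differences between 2 libraries were 1.45 to 1.96 times sampling noise within 708OE and 3.39 to 9.36 times within NIP. NIP replicate 1 stood farthest from its group, at 9.36 and 5.62 times from the others. Whether repeats were separate cultures is not stated, so p-values measure spread among these libraries that may be technical. NIP repeats alone carry labels of 2 lanes, so lane and genotype cannot be told apart. The sources used here pair no row with the name SDG708, so the targeted gene could not be checked by name. The row numbered nearest to its expected locus, LOC_Os04g34976, had an FPKM of 150 ± 3.70 in 708OE and 5.15 ± 0.665 in NIP (SD, n = 3 each). Of the 18569 tested genes, 2654 were called higher in 708OE and 3706 lower, at a limma adjusted p below 0.05. After scaling to counted reads the numbers were 3682 higher and 2079 lower, with voom on recovered reads 3758 and 2246, with median-ratio scaling 2998 and 3044, and with the gene-length trend removed 2782 and 2609.

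All 7 transcripts rose in 708OE. Their increases ran from 1.26-fold for transketolase to 1.95-fold for GAPA (on the FPKM + 1 scale), and all 7 passed limma's test at an adjusted p below 0.05, where 14.3% of all tested genes were called higher. The median log2 fold change over the 7 was 0.60, against -0.04 over all tested genes. In each of the 7, the lowest 708OE library lay above the highest NIP library, as it did for 20.0% of all tested genes, while for 30.7% the 708OE libraries all lay below. For a single gene an exact permutation test of 3 libraries against 3 cannot go below p = 0.1. In these bulk samples, more cells of a type and more RNA per cell cannot be told apart.

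**Figure D1:**
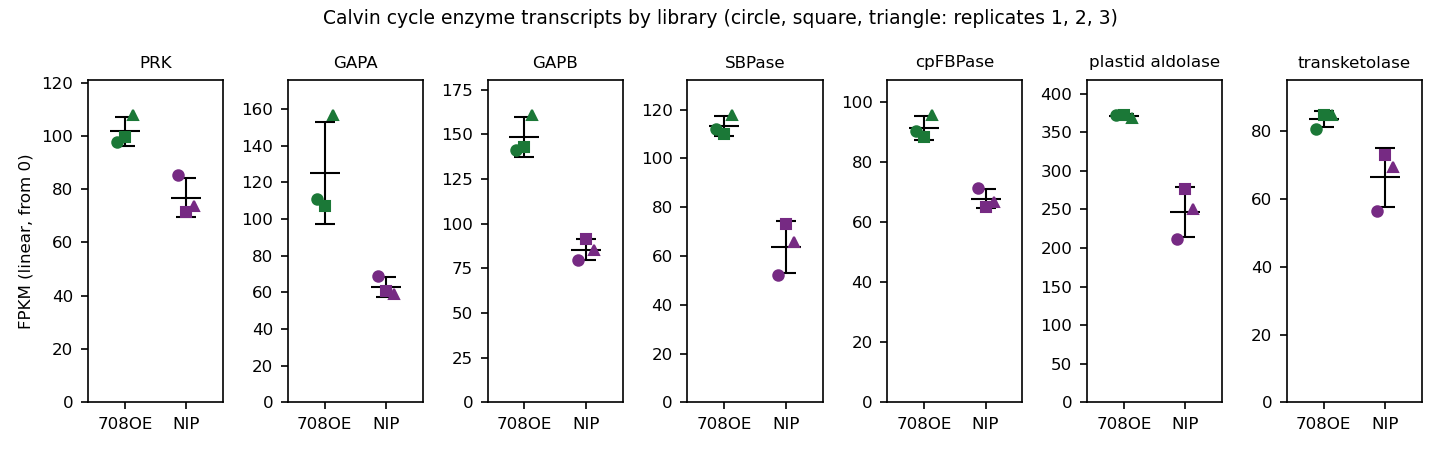
FPKM of the 7 enzyme transcripts in each library, on linear axes from 0, with 708OE left of NIP. Points are libraries, and bars are the mean ± SD of 3. The 708OE libraries lie above all NIP libraries in each panel, with the narrowest gap for transketolase (lowest 708OE 80.8, highest NIP 73.2) and a raised replicate 3 of 708OE for GAPA (157).

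The largest of the 7 increases was that of GAPA, in the reduction stage. GAPA, the subunit that also forms an enzyme on its own, had an FPKM of 111, 107 and 157 in 708OE libraries, against 69.0, 60.7 and 58.9 in NIP libraries. Replicate 3 of 708OE was 1.44 times the mean of the others, and the lowest 708OE library was 1.55 times the highest NIP library. The log2 fold change was 0.96 (SE 0.14, adjusted p = 0.0020 by limma), and 0.79 without 708OE replicate 3. GAPB, the subunit with a regulatory tail, had an FPKM of 141, 143 and 161 in 708OE libraries, against 79.7, 91.5 and 85.3 in NIP libraries. Its log2 fold change was 0.79 (SE 0.08, adjusted p = 3.5e-04 by limma), the smallest adjusted p of the 7. Both subunits thus rose, and 708OE replicate 3 was the highest library for each.

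The GAPA to GAPB ratio was 0.785, 0.749 and 0.974 in 708OE libraries, against 0.866, 0.663 and 0.690 in NIP libraries. These ranges overlapped, and the mean log2 ratio was -0.27 ± 0.20 in 708OE and -0.44 ± 0.21 in NIP (SD, n = 3 each). The difference of 0.18 had an exact two-sided permutation p of 0.40, in a design that cannot go below 0.1. This test could thus not have called a shift of any size in the ratio. FPKM here divides by gene lengths with introns, so the ratio in a library is not one of transcripts or of protein subunits. The overlap rested on NIP replicate 1: without it the ratios did not overlap and the difference was 0.30 (exact permutation p = 0.20). Without 708OE replicate 3 the difference was 0.06.

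SBPase removes a phosphate from sedoheptulose bisphosphate, a step found in the Calvin cycle and not in glycolysis. It had an FPKM of 112, 110 and 118 in 708OE libraries, against 52.1, 73.2 and 65.6 in NIP libraries. The 708OE libraries lay close together while NIP replicate 1 was low, at 0.751 times the mean of NIP replicates 2 and 3. The log2 fold change was 0.84 (SE 0.12, adjusted p = 0.0015 by limma), and 0.70 without NIP replicate 1.

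Plastid aldolase joins a triose phosphate to a further sugar phosphate, which gives the sugar bisphosphates that both bisphosphatases use, and it had the highest FPKM of the 7. Its values were 373, 373 and 368 in 708OE libraries, against 212, 276 and 251 in NIP libraries. The 708OE libraries differed by a coefficient of variation of 0.789%, near the 0.695% counting error of the library with the most aldolase reads, while NIP libraries varied by 13.1%. Its log2 fold change was 0.60 (SE 0.10, adjusted p = 0.0031 by limma).

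The plastid fructose bisphosphatase, which commits carbon to regeneration or starch, also rose. cpFBPase had an FPKM of 90.3, 88.3 and 95.9 in 708OE libraries, against 71.4, 65.2 and 66.9 in NIP libraries. Both genotypes were tight, with coefficients of variation of 4.31% in 708OE and 4.73% in NIP. The log2 fold change was 0.43 (SE 0.07, adjusted p = 0.0025 by limma).

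Transketolase moves a pair of carbons between sugar phosphates and also serves the pentose phosphate pathway. It had an FPKM of 80.8, 85.0 and 85.0 in 708OE libraries, against 56.6, 73.2 and 69.6 in NIP libraries. The groups did not overlap, but the lowest 708OE library was only 1.10 times the highest NIP library. Its log2 fold change of 0.33 (SE 0.10, adjusted p = 0.030 by limma) was the smallest of the 7 and the only one whose call was lost in any of 17 alternatives. It did not pass without NIP replicate 3 (adjusted p = 0.059 by limma) or without 708OE replicate 1, 2 or 3 (0.068, 0.095 and 0.093), nor with 708OE replicates 1 and 2 as 1 sample (0.079) or with no filter on low genes (0.062). Without NIP replicate 1, its lowest library, the log2 fold change was 0.23 and passed (adjusted p = 0.013 by limma).

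PRK, the last step of regeneration, had an FPKM of 97.8, 99.6 and 108 in 708OE libraries, against 85.2, 71.5 and 73.7 in NIP libraries. Here NIP replicate 1 was the highest NIP library and lay closest to the 708OE range. The log2 fold change was 0.41 (SE 0.08, adjusted p = 0.0080 by limma).

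Two-sided limma intervals of 95% placed the 7 log2 fold changes at 0.64 to 1.29 for GAPA, 0.57 to 1.10 for SBPase and 0.61 to 0.97 for GAPB. They were 0.37 to 0.82 for aldolase, 0.27 to 0.58 for cpFBPase, 0.22 to 0.60 for PRK and 0.11 to 0.56 for transketolase. The authors' deposited table gives log2 fold changes of 0.99 for GAPA, 0.83 for SBPase and 0.80 for GAPB. In the authors' deposited table the values are 0.59 for aldolase, 0.43 for cpFBPase, 0.41 for PRK and 0.33 for transketolase. The p-values in the authors' deposited table run from 1.1e-33 for GAPB to 1.0e-05 for transketolase, and whether these were adjusted is not stated there.

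**Figure D2:**
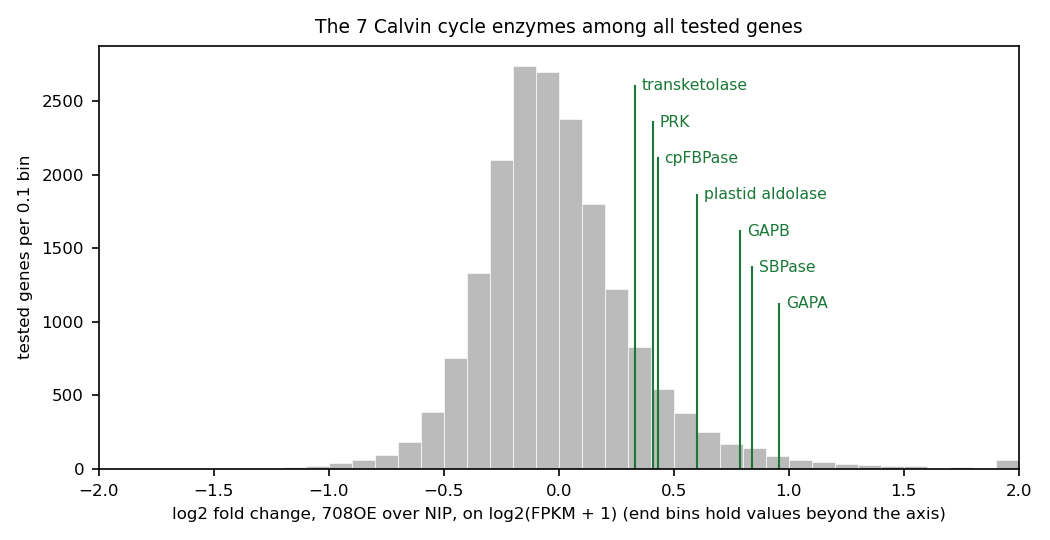
Histogram of log2 fold changes (708OE over NIP, on log2(FPKM + 1)) of the 18569 tested genes in bins of 0.1, with a green line for each of the 7 enzymes. All 7 lines stand to the right of the bulk of genes, which has a median of -0.04.

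Among all tested genes, the log2 fold change of GAPA stood at percentile 98.2, that of SBPase at 97.5, that of GAPB at 97.0 and that of aldolase at 94.8. cpFBPase stood at percentile 90.8, PRK at 90.1 and transketolase at 87.2. By level the 7 were alike in being abundant: the mean NIP FPKM of each exceeded that of at least 94.6% of tested genes. All 7 passed the filter on low values in both genotypes.

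Ratios within a library compare the 7 with each other. Of the 21 ratios between pairs of them, 12 did not overlap between genotypes and 9 did. Ratios of 48.6% of all pairs of tested genes, and of 45.1% of pairs of genes called higher, likewise did not overlap, so the count is near its background and nothing is read from it. Each of the 12 had the smallest exact p of 0.1, or 0.175 after Benjamini-Hochberg adjustment over the 21, so none passes and the differences are descriptions. The 12 set GAPA, GAPB or SBPase against PRK, cpFBPase or transketolase in 9 cases, and GAPB or SBPase over aldolase and aldolase over transketolase in the others. SBPase over transketolase, the enzyme that uses its product, had a mean log2 ratio of 0.44 ± 0.06 in 708OE and -0.07 ± 0.06 in NIP (SD, n = 3 each). GAPA over transketolase showed the largest shift, a log2 difference of 0.63. At the other end, cpFBPase over PRK was 0.923, 0.886 and 0.885 in 708OE libraries, against 0.838, 0.911 and 0.908 in NIP libraries, a log2 difference of 0.02 (exact permutation p = 0.80).

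The order of the mean levels differed between genotypes. In 708OE, aldolase at 371 ± 2.93 FPKM was followed by GAPB (148 ± 10.8), GAPA (125 ± 27.6), SBPase (113 ± 4.64), PRK (102 ± 5.60), cpFBPase (91.5 ± 3.94) and transketolase (83.6 ± 2.41; SD, n = 3 each). In NIP, aldolase at 247 ± 32.2 FPKM was followed by GAPB (85.5 ± 5.91), PRK (76.8 ± 7.35), cpFBPase (67.8 ± 3.21), transketolase (66.5 ± 8.69), SBPase (63.6 ± 10.7) and GAPA (62.9 ± 5.42; SD, n = 3 each). GAPA was thus last of the 7 in NIP and behind only aldolase and GAPB in 708OE. In 708OE the libraries of GAPB and GAPA overlapped, as did those of GAPA and SBPase, and the other 4 neighbours did not. In NIP the neighbours from cpFBPase down overlapped throughout, as did GAPB and PRK. FPKM values here divide by lengths that match whole genes with introns, from 1802 to 3597 bases for these enzymes, so this order is one of reads per gene length and not of transcripts per cell.

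**Figure D3:**
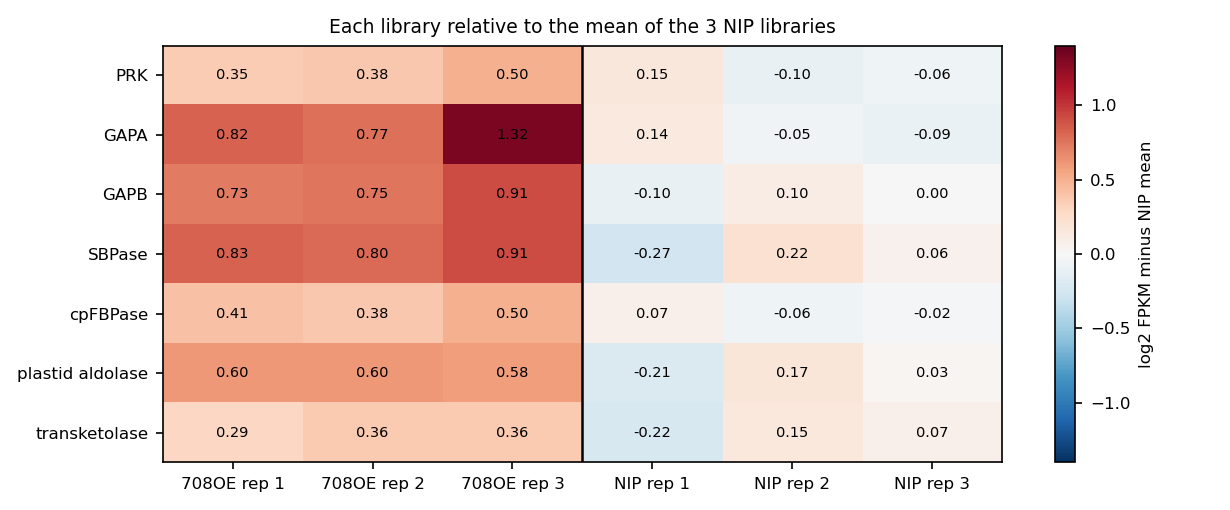
Log2 FPKM of each enzyme transcript in each library minus its mean over the 3 NIP libraries, with 708OE libraries left of the black line and NIP libraries right of it. All 708OE cells are positive (0.29 to 1.32), and in the first NIP column SBPase, aldolase, transketolase and GAPB are negative while PRK, GAPA and cpFBPase are positive.

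Within NIP the 7 transcripts fell into 2 sets by how they stood in NIP replicate 1. SBPase, transketolase, aldolase and GAPB were lower there, at 0.751, 0.794, 0.806 and 0.902 times the mean of NIP replicates 2 and 3. PRK, GAPA and cpFBPase were higher there, at 1.17, 1.15 and 1.08 times. NIP replicate 2 deviated in the opposite direction from replicate 1 for each of the 7. Deviations are from the mean of the same 3 libraries, so this opposition is partly built in. All 7 remained called without NIP replicate 1, with log2 fold changes from 0.23 for transketolase to 1.03 for GAPA and a median of 0.49. Counting error was small beside this spread: the 7 transcripts had between 2163 and 21371 reads per library, which gives a counting error of at most 2.15%.

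The rest of the plastid cycle was followed with 7 further loci, whose names rest on a list except for the ribulose-phosphate 3-epimerase, which has a reference gene of that name on the same chromosome. Of these, 3 rose, 1 fell and 3 did not pass. The count depended on the scaling and on single libraries: 4 rose after quantile normalization, after scaling to counted reads, with voom or with the gene-length trend removed and without NIP replicate 1, and 2 rose without 708OE replicate 3. The locus listed as plastid phosphoglycerate kinase (LOC_Os05g41640), which supplies the substrate of GAPA and GAPB, had an FPKM of 63.4, 65.7 and 73.9 in 708OE libraries, against 37.9, 45.7 and 39.8 in NIP libraries. Its groups did not overlap and its log2 fold change was 0.71 (SE 0.09, adjusted p = 0.0011 by limma). The locus listed as ribose-5-phosphate isomerase (LOC_Os07g08030) had a log2 change of 0.37 (adjusted p = 0.014 by limma), and 0.29 without 708OE replicate 3, where it did not pass (limma adjusted p = 0.050). The ribulose-phosphate 3-epimerase (LOC_Os03g07300) had an FPKM of 57.7, 57.9 and 60.7 in 708OE libraries, against 57.5, 48.5 and 48.7 in NIP libraries. The groups touched without overlapping, and it did not pass (log2 change 0.19, with adjusted p = 0.099 by limma). It passed without NIP replicate 1 (0.27, adjusted p = 0.0054) and in the 4 rescaled settings above. The locus listed as plastid triosephosphate isomerase (LOC_Os09g36450) overlapped between genotypes, with a log2 fold change of 0.01 and an interval from -0.14 to 0.17.

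Loci listed as second plastid isoforms had low FPKM, and of the 3, 1 rose, 1 fell and 1 did not pass. The locus listed as a second plastid aldolase (LOC_Os01g02880) had a mean FPKM of 7.13 ± 0.348 in 708OE and 6.93 ± 0.573 in NIP (SD, n = 3 each; log2 change 0.04, with adjusted p = 0.74 by limma). The locus listed as a second transketolase (LOC_Os04g19740) was the single fall, to 1.75 ± 0.0994 in 708OE, against 2.25 ± 0.134 in NIP (SD, n = 3 each; log2 change -0.24, with adjusted p = 0.044 by limma). That call was lost in 12 of 16 alternatives, among them without any 708OE library and without NIP replicate 1 or 3 (limma adjusted p from 0.075 to 0.13). The locus listed as a second plastid fructose bisphosphatase (LOC_Os06g45370) rose, with 3.70 ± 0.260 in 708OE and 2.49 ± 0.110 in NIP (SD, n = 3 each; log2 change 0.43, with adjusted p = 0.0044 by limma).

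**Figure D4:**
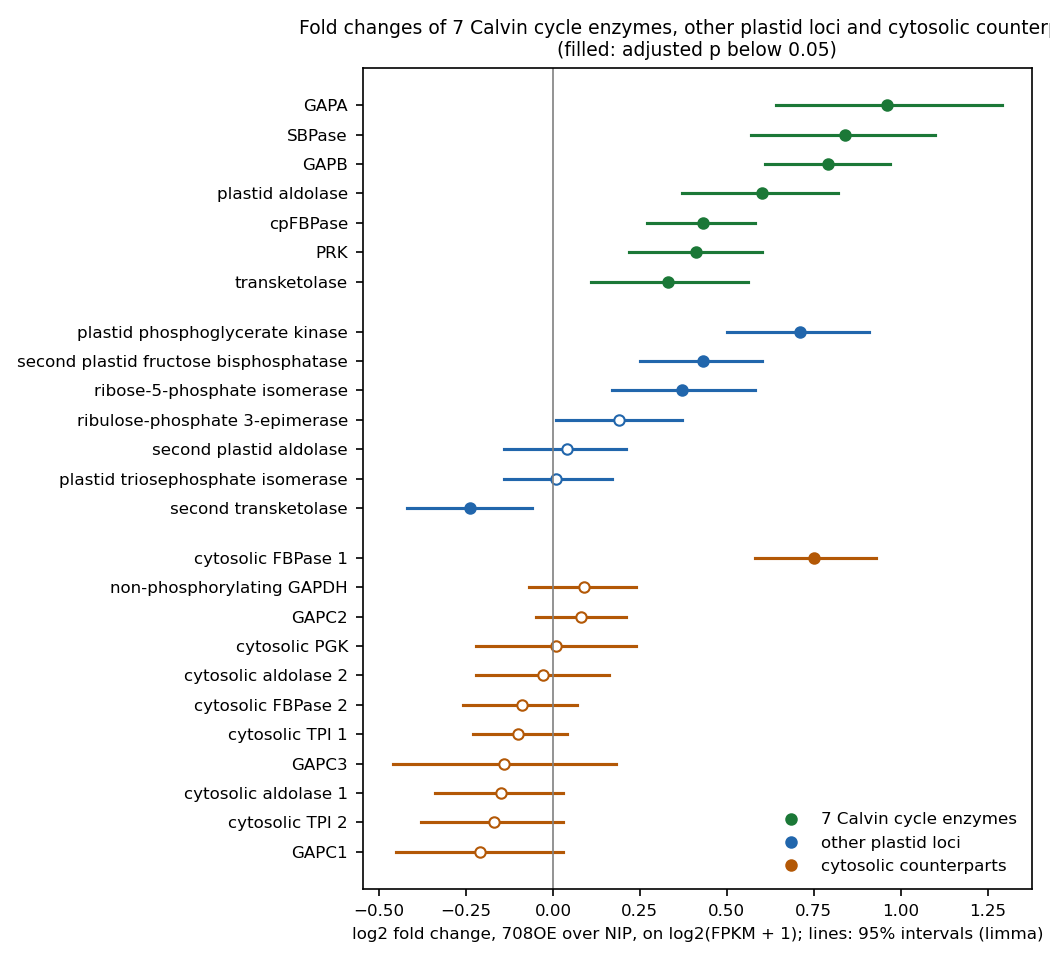
Log2 fold changes (708OE over NIP, on log2(FPKM + 1)) with 95% limma intervals for the 7 enzymes in green, 7 other plastid loci in blue and 11 cytosolic counterparts in orange; filled points had an adjusted p below 0.05. The green intervals all lie above 0, and 10 of the 11 orange points are open.

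Several of the 7 enzymes have cytosolic relatives that serve glycolysis and sucrose synthesis. The list of 11 cytosolic loci held such relatives. It also held triosephosphate isomerases, a phosphoglycerate kinase and a non-phosphorylating dehydrogenase, which match none of the 7. Of the 11, 1 rose, 0 fell by limma (0 also at an unadjusted p under 0.05, and 0 with voom) and 10 did not pass. Among all tested genes 14.3% were called higher and 20.0% lower. By library values, 2 of the 11 lay all above NIP in 708OE, 2 all below, and 7 overlapped. The shares over all tested genes were 20.0% above and 30.7% below. The median log2 fold change of the 11 was -0.09, and 2 and 3 rose after scaling to counted reads and with voom. Without NIP replicate 1, 4 of them were called lower, among them GAPC1 and GAPC3, glycolytic glyceraldehyde phosphate dehydrogenases, and FBA1, a cytosolic aldolase. GAPC1 (LOC_Os08g03290) had an FPKM of 232, 232 and 221 in 708OE libraries, against 223, 297 and 278 in NIP libraries, so that NIP replicate 1 alone lay within the 708OE range. Its log2 fold change was -0.21 (adjusted p = 0.16 by limma), and -0.33 without that replicate (adjusted p = 0.0036). The 1 called higher among the 11 was CFBP1 (LOC_Os01g64660), the cytosolic fructose bisphosphatase of sucrose synthesis. CFBP1 had an FPKM of 9.85, 9.63 and 10.4 in 708OE libraries, against 5.24, 6.06 and 5.24 in NIP libraries. Its groups did not overlap, with a log2 change of 0.75 (SE 0.08, adjusted p = 3.4e-04 by limma), while the locus listed as a second cytosolic form had one of -0.09 (adjusted p = 0.34 by limma).

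Ratios within a library set GAPA, GAPB, cpFBPase and plastid aldolase against each listed cytosolic form of the same enzyme, over 10 pairs that share loci. They were compared after their values were seen, so they are given as a description with no test. The ratio was higher in all 708OE libraries than in any NIP library for 9 of the 10 and lower for 1. Of all pairs of tested genes, 48.6% did not overlap in either direction, but that share is not limited to pairs with a gene called higher. Each plastid transcript was itself higher in all 708OE libraries, so the ratios partly restate that rise. GAPA over GAPC1 was 0.477, 0.462 and 0.709 in 708OE libraries, against 0.309, 0.204 and 0.212 in NIP libraries, a 2.27-fold difference. Over the sum of its 3 cytosolic forms GAPA differed 2.19-fold and GAPB 1.94-fold. Plastid aldolase over FBA1 was 7.44, 7.43 and 7.77 in 708OE libraries, against 4.36, 4.74 and 4.33 in NIP libraries, a 1.69-fold difference. Over FBA3, another cytosolic aldolase, it differed 1.55-fold. For cpFBPase the direction depended on the cytosolic form. Its ratio over CFBP1 was lower in 708OE libraries, at 9.16, 9.17 and 9.25, against 13.6, 10.8 and 12.8 in NIP libraries. Over the locus listed as the second cytosolic form (LOC_Os05g36270) it was higher, at 6.71, 6.59 and 7.52 in 708OE libraries, against 5.45, 4.27 and 4.71 in NIP libraries. Over the sum of both forms it was 3.87, 3.83 and 4.15 in 708OE libraries, against 3.89, 3.06 and 3.44 in NIP libraries, and the groups overlapped.

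**Figure D5:**
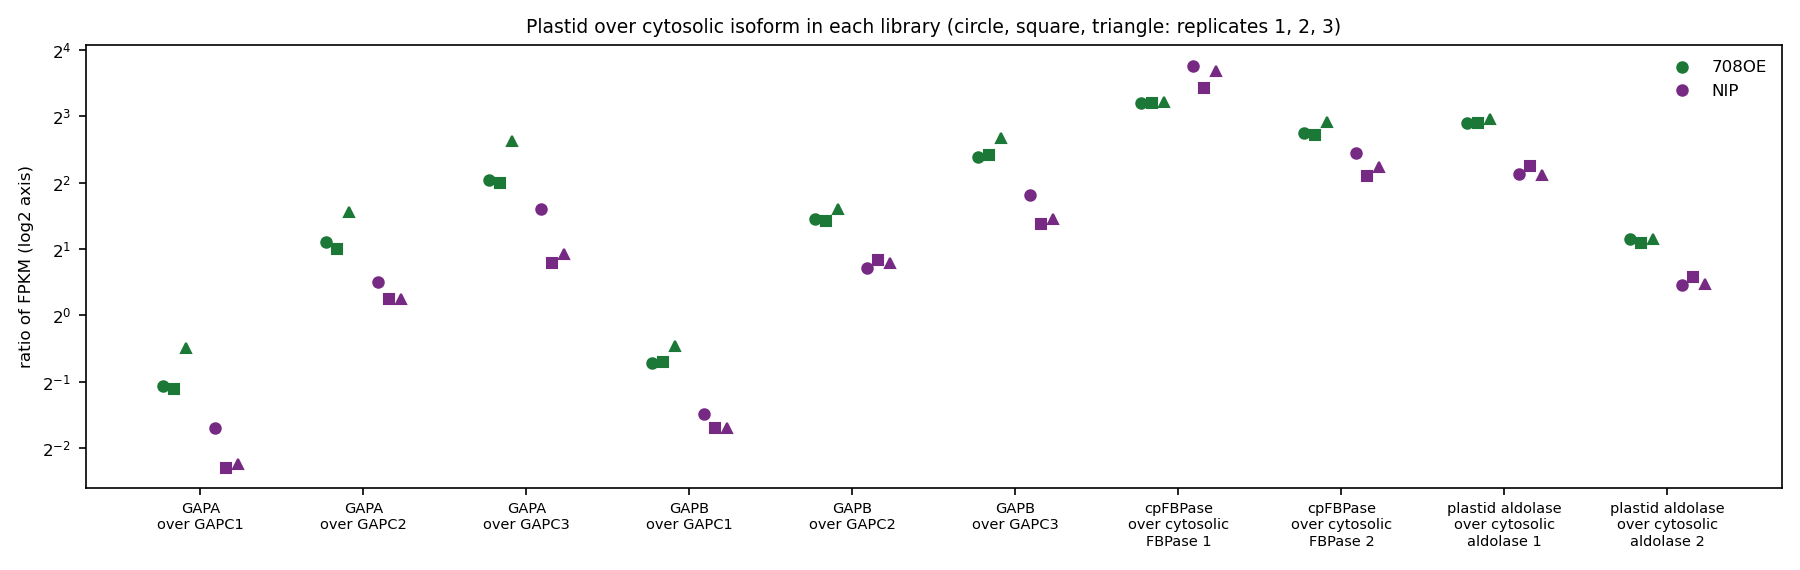
Ratio of plastid over cytosolic isoform FPKM in each library on a log2 axis, with 708OE in green left of NIP in purple. The ratios of GAPA, GAPB and aldolase are higher in all 708OE libraries, while cpFBPase is lower over cytosolic FBPase 1 (CFBP1), at 9.16 to 9.25 in 708OE and 10.8 to 13.6 in NIP, and higher over cytosolic FBPase 2.

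Thioredoxin f passes electrons from the light reactions to SBPase, cpFBPase, PRK and the GAPB tail. Its locus (LOC_Os01g68480) had an FPKM of 95.1, 92.6 and 97.1 in 708OE libraries, against 62.3, 56.8 and 58.6 in NIP libraries. The groups did not overlap, and the log2 fold change was 0.67 (SE 0.06, adjusted p = 2.5e-04 by limma). Thioredoxin m5 (LOC_Os12g08730) had a log2 change of 0.26 (adjusted p = 0.019 by limma), a call that was lost in 7 of 17 alternatives (adjusted p from 0.061 to 0.081). NTRC (LOC_Os07g46410), an NADPH-dependent reductase fused to a thioredoxin, had a mean FPKM of 10.8 ± 0.362 in 708OE and 10.7 ± 0.539 in NIP (SD, n = 3 each), and its log2 fold change of 0.01 had an interval from -0.14 to 0.17. A locus listed as CP12 (LOC_Os01g19740) had a mean FPKM of 6136 ± 152 in 708OE and 6136 ± 370 in NIP (SD, n = 3 each). Its log2 change was 0.00 (adjusted p = 0.99 by limma), and another locus listed as CP12 (LOC_Os03g19380) had one of 0.23 (adjusted p = 0.076 by limma). Of all 5 loci listed for light regulation of the cycle 2 rose and 3 did not pass. Under the rescalings of libraries 3 or 4 rose, and 1 rose with the gene-length trend removed or without any one 708OE library or NIP replicate 3. The 4 tested loci listed for Rubisco and its activase all rose, with a median log2 fold change of 0.87, against 0.60 for the 7 enzymes. That difference was not tested, and the table lengths of 3 of the 4 differ from the reference by over 1.5-fold, so their names are uncertain.

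Other transcripts of green tissue also rose in 708OE. In NIP replicate 1 the green markers stood at 0.679 (Lhcb1) to 0.996 (Lhcb2) times the mean of NIP replicates 2 and 3. PRK, GAPA and cpFBPase were higher there. Loci listed for Rubisco and its activase were split there as well. RBCS2 stood at 1.17 and RBCS4 at 1.14 times, against 0.829 for RBCS3, the Rubisco locus among the markers, and 0.931 for the activase. Transcripts of green tissue thus did not all move together within NIP, and these ratios rest on 1 library. All 6 markers of green shoots rose, 1 of them a Rubisco locus counted above, and their summed FPKM ranged from 9739 to 10016 in 708OE and from 4860 to 6646 in NIP, with NIP replicate 1 lowest. The labelled tissue is seedling, with no organ named. Of 6 listed root markers, Lsi2, NRT2.1 and AMT1;2 were at 0 in all 6 libraries, and RCc3 and PIP2;3 were at or near 0. Lsi1 was detected in every library, with an FPKM from 2.39 to 2.66 in 708OE and from 2.39 to 3.27 in NIP. Lsi1 made up most of the summed FPKM of the 6 root markers. That sum ranged from 2.48 to 2.66 in 708OE and from 2.48 to 3.44 in NIP. The 1 tested root marker, Lsi1, did not pass (log2 change -0.12, with adjusted p = 0.35 by limma). Of 6 clock genes, whose transcripts cycle through the day, 1 fell and 5 did not pass. Among all tested genes 20.0% were called lower, so nothing is read from that count. The summed FPKM of the 6 clock genes ranged from 410 to 418 in 708OE and from 449 to 503 in NIP, with NIP replicate 1 highest. The fall, of TOC1 (log2 change -0.27, with adjusted p = 0.043 by limma), was lost under every rescaling of libraries (adjusted p from 0.071 to 0.16). Without NIP replicate 1, 3 clock genes were called lower, in a setting that called 3838 of all tested genes lower. What part green tissue content or the hour of harvest had in the rise of the 7 enzymes was not tested.

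All 7 were higher in 708OE, which alone gives high correlations over 6 libraries in 2 groups, and within NIP they deviated in opposite directions as given above. As a description, correlations with the mean profile of the 7 on log2(FPKM + 1) ran from 0.880 for transketolase and 0.893 for PRK to 0.974 for SBPase, with GAPB above all of these. Each profile is itself part of that mean. Of 18562 other tested genes, 1058 (5.70%) reached a Pearson r of 0.95 over these 6 libraries. The 2 closest were LOC_Os02g03960 (r = 0.9997) and LOC_Os04g58200 (r = 0.9992), neither of which is annotated in the sources used here. LOC_Os04g58200 had an FPKM of 31.5, 32.3 and 38.3 in 708OE libraries, against 13.9, 15.8 and 14.4 in NIP libraries.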

How the data were processed

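Seedling RNA was extracted with TRIzol, selected on oligo(dT) beads and built into stranded KAPA libraries, per the labels' protocols. Per the file headers, the authors gave FPKM for each library, with 3 NIP columns where the labels list 3 repeats on 2 lanes. Per the file headers, log2 fold changes and p-values from the authors stand beside them. Tools named, per the submitters' processing notes, include HISAT2, featureCounts and DESeq2. No version, genome build or strand setting is given in the sources used here. NIP columns carry an unexplained digit and were assigned to NIP as a group.

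The test was limma (3.58.1, R 4.3.3) on log2(FPKM + 1) with a variance trend, two-sided, over genes that reached an FPKM of 1 in 3 or more of 6 libraries, with Benjamini-Hochberg adjustment at 0.05. The pseudocount of 1 understates changes of low genes. Whole reads and gene lengths were recovered from the steps of the FPKM values for 31219 of 31263 genes with any value (99.9%, tolerance 0.02 of a read). Reads in the table were 0.971 to 0.996 times the implied library size in 708OE and 1.05 to 1.07 times in NIP. Lengths had a median of 1.01 times the genomic length of the reference gene over 27 loci. The fit and the recovery were tested on simulated data. For the fit, the simulation gave both groups the same spread, so it did not cover the unequal spread of these libraries. Intervals of counting error cover counting only.

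The 7 genes and all lists were chosen with earlier results of these data known. All 7 were named with values in each library, then list genes, then the 2 genes most like them. Names were compared with the reference gene table: 30 of 54 listed loci, among them 2 of the 7 (cpFBPase and aldolase), had a gene of that name on the same chromosome. Of 27 with both lengths, 23 were within 1.5-fold, and the exceptions were loci listed as Rubisco small subunits, activase and LHY. Alternatives were other pseudocounts, filters, scalings, voom, a replicate block, removal of a gene-length trend and leaving out libraries.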

Additional observations from a re-analysis of the deposited data

How the results depend on the processing

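The rise of the 7 enzymes kept its direction in all 17 alternatives for each, and only transketolase lost its call, in 6 of them. The number called higher was 6 with 708OE replicates 1 and 2 as 1 sample, 6 with no filter on low values, and from 6 to 7 when 1 library was left out. Leaving out 1 library moved the log2 fold change between 0.79 and 1.06 for GAPA and between 0.23 and 0.41 for transketolase. Of all tested genes, 6360 were called; leaving out 1 library gave 3708 (708OE replicate 3) to 7176 (NIP replicate 2), with 4025, 4070 and 4042 without 708OE replicate 1, 708OE replicate 2 and NIP replicate 3, and 708OE replicates 1 and 2 as 1 sample gave 4227. The GAPA to GAPB log2 difference of 0.18 lay between 0.06 and 0.30. Replicate numbers did not pair libraries: deviations of same-numbered libraries correlated at -0.005, -0.002 and -0.045, and 0 of 6 libraries correlated best with their own number. With the replicate block 5619 genes were called, all 7 enzymes still rose and the GAPA to GAPB difference was 0.18. Other named loci had 32 lost and 22 gained calls and no reversed call. Depth was not the limit for the 7 enzymes, whose counting error was at most 2.15%.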
